A study of Mus musculus with 94 samples.

Results

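Cd7 (ENSMUSG00000025163) was followed across single basophils of mouse bone marrow, together with its relation to Ccl6, Ctsg, Prss34 and Mcpt8. It is 1 of 46078 gene identifiers in the table. It was chosen by its measured values: earlier results of these data showed a higher level in cells without surface CD34 and the relation to those 4 genes across these cells. Its levels and these relations are therefore a description with no test. The study sorted 47 CD34-positive and 47 CD34-negative cells by index sorting from female C57BL/6 mice, with no treatment or age named in the labels used here. Both gates took live cells that were lineage-negative, Sca1-negative and positive for FcεRI, the high-affinity IgE receptor, and the design names 3 mice without saying which cell came from which. Each gate therefore counts as 1 sample, and spread between cells is not spread between mice.

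CD7 is a transmembrane glycoprotein of the immunoglobulin superfamily, best known as a marker of T cells, natural killer cells and their precursors. Its cytoplasmic tail can engage phosphoinositide 3-kinase, and its known binding partners are the SECTM1 proteins and galectin-1. Basophils are granulocytes that store histamine and proteases and release cytokines when IgE on FcεRI is crosslinked. Prss34 and Mcpt8 encode serine proteases of mouse basophil granules, Ctsg encodes cathepsin G, a protease of the primary granules of early myeloid cells, and Ccl6 encodes a CC chemokine.

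Cd7 lies on the minus strand of chromosome 11 at 121036747 to 121039418 in GRCm38 (mm10), per the GENCODE M21 annotation. Its coding transcript of 982 bases has 4 exons. An exon of the antisense gene Gm11775, on the plus strand at 121037695 to 121037862, covers 122 of the 137 bases of exon 3, all of which is coding. The sequence of exon 3 (chr11:121037680-121037816, minus strand, from the GENCODE transcript) is shown because a read inside the shared bases matches both genes unless strand was used. Reads that named more than 1 gene were counted for none, so in that case such reads would be missing from Cd7. The strand setting is not given in the sources used here. Capitals mark the bases shared with the Gm11775 exon.
Cd7 exon 3: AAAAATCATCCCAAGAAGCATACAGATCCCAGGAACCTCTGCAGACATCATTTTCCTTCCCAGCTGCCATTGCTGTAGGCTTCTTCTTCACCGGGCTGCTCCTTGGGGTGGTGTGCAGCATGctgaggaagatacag
The shared bases make up 10.8% of the 1133 exonic bases of the 2 Cd7 transcripts. Gm11775 itself had 22 reads, against 12879 for Cd7 in the CD34-negative gate. These 22 reads came from CD34-negative cells 24, 18, 14 and 21, with 11, 6, 4 and 1 reads, which are among the 5 cells with the highest Cd7. Gm11775 had no read in the CD34-positive gate.

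Of the 94 cells, 92 were kept, 46 per gate, with 262944 to 1154738 gene reads each. One kept library of the CD34-negative gate went against its label in part of its markers. Cell 10 had Fcer1a and Ms4a2, which encode chains of FcεRI, at 7.61 CPM (read counts scaled to an equal total of gene reads in every cell) each, where the lowest of the other 45 cells had 223 CPM and 481 CPM. Hdc, the enzyme that makes histamine, was at 0 CPM there and at 101 CPM or more in the other cells. Cell 10 also had the highest Csf1r, the receptor of macrophage growth factor, at 966 CPM against at most 147 CPM elsewhere. The complement gene C1qa was at 1833 CPM in cell 10 and 0 CPM in the other 45 cells, and the MHC class II chaperone gene Cd74 at 12273 CPM against at most 2.41 CPM. Cd74 and C1qa were chosen after their values were seen. Cell 10 had no Cd7 read, which at its depth allows up to 11.4 CPM (3 reads), and the level and share of Cd7, its 4 relations, the RNA content measures and the list counts that changed are given with and without it.

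Cd7 was either at or near 0 or high in CD34-negative cells. Of the 46 cells, 11 had no Cd7 read, 8 had 1 to 13 reads (1.13 to 17.4 CPM), and 27 had 96.6 to 1283 CPM. No cell lay between 20 and 90 CPM. The median was 202 CPM (215 CPM without cell 10), the quartiles were 1.17 and 613 CPM, and the spread over cells was 363 ± 412 CPM (SD, n = 46 cells). At least 1000 CPM was reached by 5 cells, numbered 18, 21, 42, 24 and 14. These 5 cells held 39.1% of the 12879 Cd7 reads of the gate, so most Cd7 reads came from other cells.

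**Figure D1:**
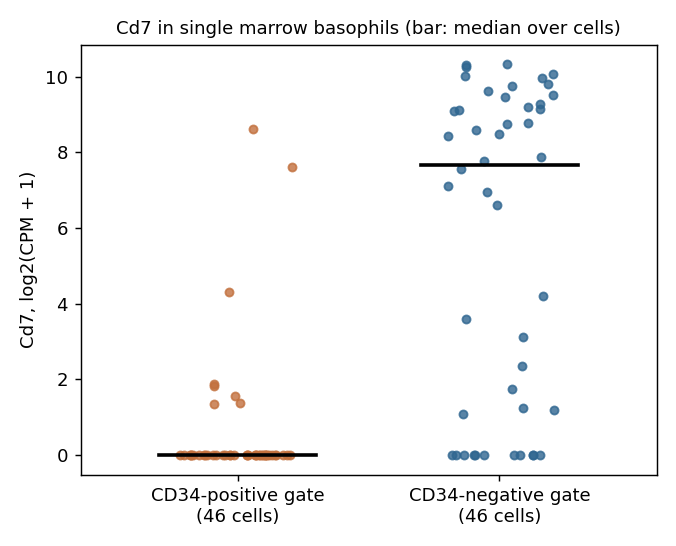
Cd7 level, as log2(CPM + 1), in each of the 46 kept cells of the CD34-positive and CD34-negative gates, with a bar at the median over cells. The 27 CD34-negative cells with at least 90 CPM stand above a gap, while 38 CD34-positive cells lie at 0.

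In the CD34-positive gate Cd7 was rare. There 38 of 46 cells had no Cd7 read, 5 cells had a single read, and 3 cells held 414 of the 419 reads of the gate, or 98.8%. These were cell 37 with 270 reads (389 CPM), cell 23 with 130 reads (195 CPM) and cell 46 with 14 reads (18.9 CPM). Over the other 43 cells Cd7 summed to 5 reads, or 0.179 CPM (0.0581 to 0.418, exact Poisson 95% interval). The values of cells 37 and 23 lay inside the range of the high CD34-negative cells.

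The 3 CD34-positive cells with most Cd7 were also the 3 with the highest Ccl6 of that gate. Ccl6 was at 4080 CPM in cell 23, 2102 CPM in cell 46 and 905 CPM in cell 37, against a gate median of 4.79 CPM. For Ctsg, cells 37, 23 and 46 ranked 46, 44 and 37 of 46 from the highest, at 137, 513 and 1551 CPM against a gate median of 3514 CPM. For Mpo, which encodes the primary granule enzyme myeloperoxidase, they ranked 46, 45 and 38. For these 2 genes cell 46, with 14 Cd7 reads, lay closer to the rest of the gate than the other two. Prss34 was at 49295, 41784 and 64619 CPM in them, ranks 31, 33 and 19, and Mcpt8 ranked 39, 38 and 34. Cell 23 carried Cd34 reads at 162 CPM, and cells 37 and 46 had none.

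Summed over all cells of a gate, Cd7 reached 385 CPM (378 to 392, exact Poisson 95% interval) without CD34 and 13.95 CPM (12.6 to 15.4) with it. The log2 fold, CD34-positive over CD34-negative with 1 CPM added, was -4.69, with a counting interval of -4.85 to -4.54 that does not cover differences between cells or mice. The same fold was taken for 12460 genes seen in 10 or more cells. Of these 10.1% were at least 2-fold higher without CD34 and 21.7% with CD34. With levels scaled to ERCC reads these shares were 2.34% and 52.7%. The contrast was used to choose Cd7, so nothing is read from them. Leaving out CD34-positive cell 37 alone lowered the CD34-positive level to 5.08 CPM and moved the log2 fold to -5.99. With all 92 cells, the log2 fold was -3.77 with ERCC scaling and -4.04 with 10 CPM added.

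At an equal depth of 200000 gene reads drawn per cell, Cd7 was seen in 29 of 46 cells without CD34, a share of 63.0% (47.5% to 76.8%, exact Clopper-Pearson 95% interval). Without cell 10 this was 29 of 45 cells, or 64.4%. Among CD34-positive cells it was 5 of 46, or 10.9% (3.62% to 23.6%). Without drawing, the counts were 35 and 8 cells. Requiring 10 reads at the equal depth left 27 and 2 cells, so the higher minimum removed 2 CD34-negative and 3 CD34-positive cells.

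Across the 46 CD34-negative cells Cd7 ran with Ccl6 and against Ctsg, Prss34 and Mcpt8. Spearman's rho was 0.674 with Ccl6, -0.651 with Ctsg, -0.711 with Prss34 and -0.694 with Mcpt8. Without cell 10 these were 0.672, -0.668, -0.771 and -0.764. Among 5076 genes with reads in at least 20 of these cells, 4.28% had a rho with Cd7 of at least 0.3 and 9.89% one of at most -0.3. Without cell 10 these shares were 3.78% and 11.1%. The central 95% of rho ran from -0.42 to 0.35, with a median of -0.07. Prss34 had the lowest rho of all 5076, Mcpt8 the second lowest and Ctsg rank 4 from the lowest, while Ccl6 had rank 2 from the highest. The cells come from the same 3 mice and share a sorting plate and an amplification protocol, and no p-value is given.

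**Figure D2:**
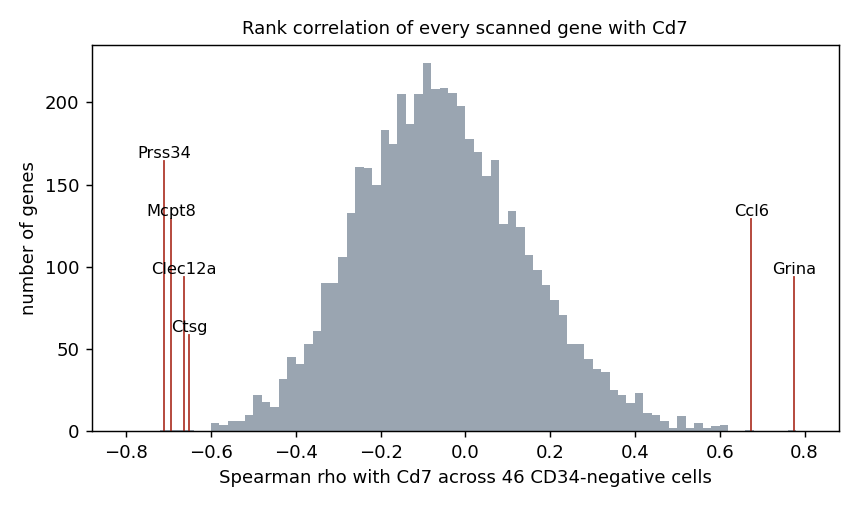
Number of genes by Spearman rho with Cd7 across 46 CD34-negative cells, for 5076 genes with reads in at least 20 of them. Red lines mark 6 genes that lie at the ends of the distribution, from Prss34 at -0.71 to Grina at 0.78.

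Cell by cell, Ccl6 had at least 1000 CPM in 24 of the 27 cells with at least 90 CPM of Cd7 and in 4 of the other 19 cells. The exceptions with high Cd7 were cells 47, 17 and 37, with Ccl6 at 3.26, 267 and 617 CPM. Among cells with no Cd7 read, cells 39 and 28 had Ccl6 at 3249 and 1343 CPM. The thresholds were chosen after the values were seen.

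Ctsg reached 100 CPM in 5 of the 27 cells with high Cd7, none above 422 CPM, and in 14 of the other 19, up to 2672 CPM. Of the 5 cells with low Cd7 and low Ctsg, cell 10 is described above, and cells 1, 7, 39 and 41 had Ctsg between 0 and 10.2 CPM. Cells 39 and 41 also had Ccl6 at 3249 and 3236 CPM. The highest Ctsg values lay in cells with little or no Cd7.

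Prss34 spread widely among cells with high Cd7. It ran from 17.5 to 25015 CPM in the 27 cells, and from 118 to 92634 CPM in the other 19. The 118 CPM was cell 10, and without it the lowest of the other 18 was 3520 CPM in cell 1. The ranges overlap either way. The 5 highest Cd7 cells differed from each other, with Prss34 at 40.1 CPM in cell 18, 28.3 CPM in cell 21, 28.2 CPM in cell 24, 2480 CPM in cell 14 and 24419 CPM in cell 42. Mcpt8 behaved alike, from 10.6 to 5374 CPM in the 27 cells and from 45.6 to 35141 CPM in the others, or from 1541 CPM without cell 10. Prss34 and Mcpt8 had a rho of 0.922 with each other, and Ctsg one of 0.766 and 0.795 with them, so the 3 relations of Cd7 with proteases are not independent of each other.

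**Figure D3:**
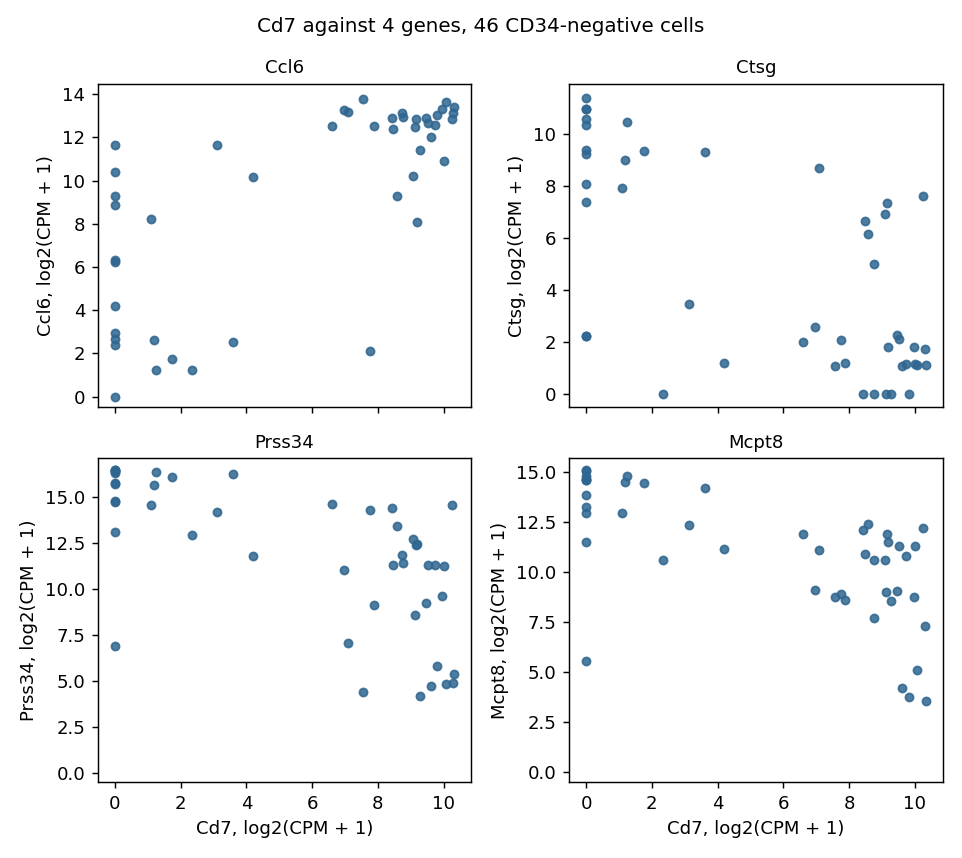
Each panel plots 1 of 4 genes against Cd7, both as log2(CPM + 1), with a point for each of 46 CD34-negative cells. Ccl6 is high in most cells with high Cd7, Ctsg is mostly near 0 there, and Prss34 and Mcpt8 span a wide range among them.

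On each side of the gap in Cd7, at a threshold set after the values were seen, rho was closer to 0. Over the 27 cells with at least 90 CPM, rho was 0.140 with Ccl6, -0.212 with Ctsg, -0.315 with Prss34 and -0.338 with Mcpt8. Over the 19 cells below, rho was -0.146, -0.398, -0.324 and -0.350, and most of these Cd7 values rest on 0 to 3 reads. Without cell 10 these 4 values were -0.128, -0.474, -0.441 and -0.470. Cutting the range of Cd7 lowers a correlation in itself, so these values do not show where the relation over all cells lies.

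Measures of RNA content moved with Cd7. Cells with more Cd7 had fewer genes with a read at 200000 gene reads (rho -0.609 over 46 cells) and fewer gene reads per read of the ERCC spike-in RNA (rho -0.514). Without cell 10 these were -0.602 and -0.577. Prss34 had a rho of 0.678 and 0.708 with the same measures, and Ccl6 one of -0.532 and -0.489. Given the number of genes found, the partial rank correlation of Cd7 was 0.522 with Ccl6, -0.443 with Ctsg, -0.511 with Prss34 and -0.519 with Mcpt8, and without cell 10 it was 0.522, -0.470, -0.612 and -0.621. With every level taken per ERCC read, rho was 0.621, -0.557, -0.634 and -0.590, and without cell 10 it was 0.616, -0.586, -0.692 and -0.657. Over all 5076 genes, the shares with a rho of at least 0.3 and at most -0.3 were 5.32% and 3.13% given the genes found, and 1.54% and 15.4% per ERCC read. What RNA content contributes to the 4 relations was not tested.

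**Figure D4:**
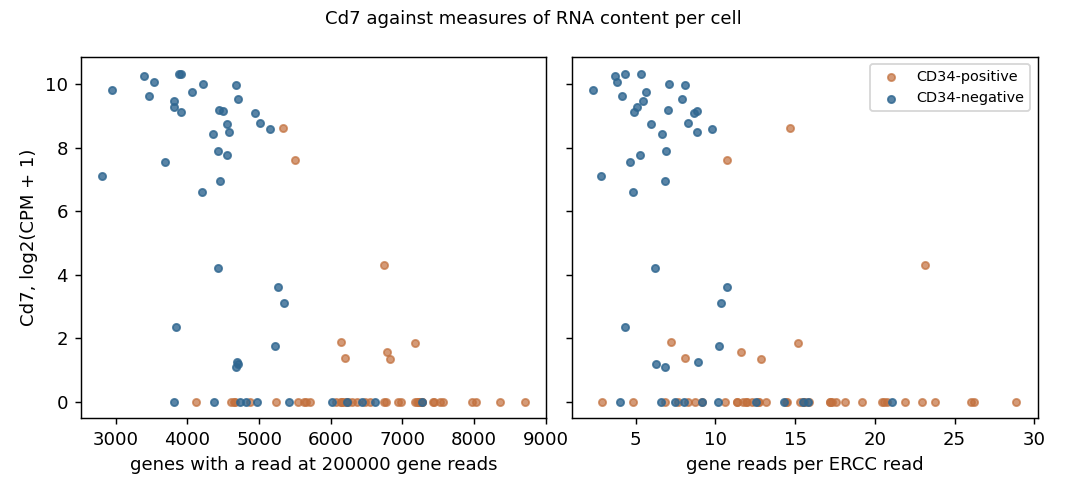
Cd7, as log2(CPM + 1), against the number of genes with a read at 200000 gene reads (left) and against gene reads per ERCC read (right), with a point for each of 92 kept cells coloured by gate. Among CD34-negative cells, high Cd7 values sit more often at the lower end of both measures. There are exceptions, such as cell 37 at 5151 genes and 9.78 gene reads per ERCC read, above the gate medians of 4520 and 6.87.

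The genes most like Cd7 were named by rank of rho. The 6 highest were Grina (0.776), Ccl6 (0.674), Gstm2-ps1 (0.615), Gstm1 (0.612), Tmem71 (0.608) and Ccl4 (0.603). Grina encodes a membrane protein of the TMBIM family. Its level ran from 778 to 4377 CPM in the 27 cells with high Cd7 and from 53.2 to 1725 CPM in the other 19, or from 202 CPM without cell 10. Gstm1 encodes a glutathione S-transferase, and Gstm2-ps1 is a pseudogene of that family, so reads may be split between them and both are uncertain. Ccl4 encodes a CC chemokine that basophils secrete. Grina and Ccl6 also held ranks 1 and 2 without cell 10.

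At the other end, the 6 lowest were Prss34, Mcpt8, Clec12a (-0.664), Ctsg, Ms4a3 (-0.595) and mt-Nd6 (-0.591). Clec12a encodes an inhibitory C-type lectin receptor of myeloid cells and Ms4a3 a membrane protein of granulocyte precursors. Ms4a3 did not exceed 2.13 CPM in the 27 cells with high Cd7 and reached 1130 CPM in the other 19, of which 10 had at least 100 CPM. Clec12a had at least 100 CPM in 5 of the 27 cells and in 17 of the other 19. Cell 6, with Cd7 at 557 CPM, had Clec12a at 986 CPM and was the highest of those 5. Of the 12 genes, 9 were again among the 12 without cell 10, 7 were with levels per ERCC read, and 6 given the number of genes found.

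**Figure D5:**
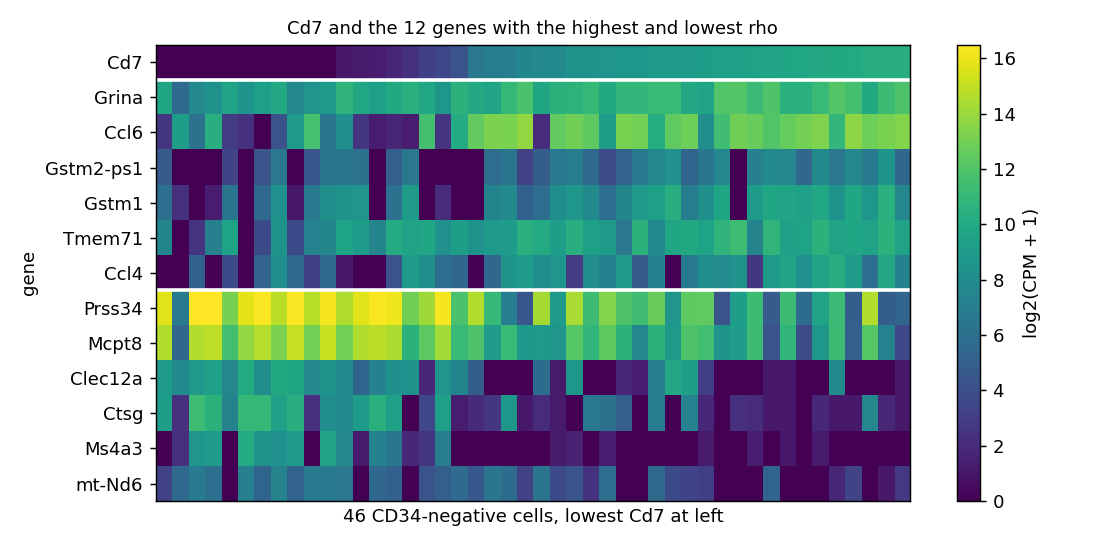
Levels, as log2(CPM + 1), of Cd7 and of the 6 genes with the highest (middle block) and the 6 with the lowest rho (bottom block) in 46 CD34-negative cells ordered by Cd7. Ms4a3 and Ctsg are near 0 in most cells at the right, where Cd7 reaches 1283 CPM, while Prss34 varies among them.

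The proteins that bind CD7 were compared next. The ligand genes Sectm1a and Sectm1b, which lie beside Cd7 on chromosome 11, had 0 reads in both gates. Lgals1, which encodes galectin-1, summed to 193 CPM without CD34 and 434 CPM with it, and had a rho of -0.454 with Cd7 (-0.518 without cell 10). Csnk1d, the coding neighbour on the other side, had reads in 42 cells of each gate and a rho of -0.05 with Cd7.

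For the phosphoinositide 3-kinase pathway 17 genes were listed, and 14 had reads in at least 10 cells. Of these 1 was at least 2-fold higher without CD34, the regulatory subunit gene Pik3r5 (19.0 against 7.23 CPM), and 1 with CD34, beside 10.1% and 21.7% of all genes. With ERCC scaling the counts were 0 and 3, beside 2.34% and 52.7%. Their median log2 fold was -0.39 (0.57 with ERCC scaling), beside 0.19 over all 12460 genes (1.06). Pik3cd, the catalytic subunit of leukocytes, was found in all 46 CD34-negative cells, with a median of 325 CPM and a rho of 0.282. Of 9 members scanned, Pik3ca had a rho of at least 0.3, at 0.369 (0.348 without cell 10 and 0.264 given the genes found), and without cell 10 Pik3cd did too, at 0.312. The shares of all genes were 4.28% and, without cell 10, 3.78%, and with 1 or 2 of 9 nothing is read from the count.

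Of the 9 chemokine and cytokine genes listed, 8 were at least 2-fold higher in the CD34-negative gate, beside 10.1% of all genes, with a median log2 fold of -2.46. With ERCC scaling 5 were, beside 2.34% of all genes, and Il4, Il13 and Csf1 no longer were. Of the 8 scanned, 5 had a rho of at least 0.3 with Cd7 and 0 one of at most -0.3, also without cell 10. The shares of all genes were 4.28% and 9.89%, and 3.78% and 11.1% without cell 10. The relation of Ccl6 was used to choose Cd7, and without Ccl6, 4 of 7 had a rho of at least 0.3. Besides Ccl6 and Ccl4 the 5 genes were Csf1 (0.402), Ccl9 (0.366) and Ccl3 (0.338). Given the genes found, Csf1, Ccl9 and Ccl3 were at 0.268, 0.261 and 0.164. This left Ccl6 and Ccl4, 2 of 8, beside 5.32% of all genes. Per ERCC read, Csf1 and Ccl3 were at 0.161 and 0.118, and Osm reached 0.317. By that measure 4 of 8 had a rho of at least 0.3, beside 1.54% of all genes. Il4, the main cytokine of basophils, had a rho of 0.06 with Cd7.

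Primary granule and progenitor genes ran the other way. All 9 were at least 2-fold higher with CD34, beside 21.7% of all genes, and their median log2 fold was 3.999. The list holds Cd34, on whose product the cells were sorted, and without it the count was 8 of 8. Of the 5 scanned, 4 had a rho of at most -0.3, beside 9.89% of all genes, including the progenitor transcription factor Myb (-0.502) and Mpo (-0.500), while the proteoglycan gene Srgn was at -0.10. Ctsg, whose relation was used to choose Cd7, is among the 4, and without it the count was 3 of 4. Given the genes found, Mpo and Myb were at -0.249 and -0.291, and 2 of 5 remained, Ctsg among them, beside 3.13% of all genes. Per ERCC read 5 of 5 had a rho of at most -0.3, beside 15.4% of all genes. The 4 CD34-negative cells with the highest sum over the 11 listed cell cycle genes, cells 25, 36, 32 and 28, had 0 Cd7 reads. In all, 11 of the 46 cells of the gate had none. Cells 45 and 11, next in order of that sum, had Cd7 at 136 and 428 CPM. Over all cells of the gate the sum had a rho of -0.252 with Cd7. Of the 11 genes 10 were at least 2-fold higher with CD34, beside 21.7% of all genes (median log2 fold 2.09). With ERCC scaling 11 were, beside 52.7% of all genes.

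Of the 7 protease and receptor genes, Prss34, Mcpt8, Fcer1a (-0.375) and Ms4a2 (-0.368) had a rho of at most -0.3, beside 9.89% of all genes. The relations of Prss34 and Mcpt8 were used to choose Cd7, and without them the count was 2 of 5. Given the genes found, Fcer1a and Ms4a2 were at -0.186 and -0.181, so that Prss34 and Mcpt8 alone of the 7 remained, beside 3.13% of all genes. Per ERCC read 6 of the 7 had a rho of at most -0.3, beside 15.4% of all genes. Without cell 10 Fcer1a and Ms4a2 were at -0.447 and -0.440. The mast cell and basophil protease gene Cpa3 then moved from -0.281 to -0.336, making 5 of 7, beside 11.1% of all genes. Gata2 had a rho of 0.400, which was 0.441 given the genes found, 0.367 without cell 10 and 0.003 with levels per ERCC read. Of the list 3 were at least 2-fold higher with CD34 (median log2 fold 0.43), beside 21.7% of all genes, and 5 were with ERCC scaling, beside 52.7%.

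Of the 25 immune receptor symbols, 22 were matched and 15 had reads in at least 10 cells. Of these 7 were at least 2-fold higher without CD34 and 2 with it (median log2 fold -0.95), beside 10.1% and 21.7% of all genes. With ERCC scaling 4 were higher without CD34, namely Pirb, Il10ra, F2r and Ccr2, and 5 with it, namely Cd48, Cd27, Ly6e, Thy1 and Cxcr4, beside 2.34% and 52.7% of all genes, and the median was 0.0079. Of 9 scanned, the chemokine receptor gene Ccr2 had the highest rho with Cd7, at 0.520, and Cxcr4, whose product retains cells in the marrow, the lowest, at -0.476. Given the genes found they were at 0.316 and -0.215. Cd200r3, an activating receptor gene of basophils, had a rho of -0.03 with Cd7.

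Since CD7 marks lymphocytes, their markers were counted in the same cells. The 14 T cell markers summed to 8.58 CPM in the CD34-negative gate, with a range of 0 to 137 CPM over its cells and 12.2 CPM in the CD34-positive gate. In the CD34-negative gate Cd3g, Cd247, Cd4, Cd5, Cd6, Trac and Themis had 0 reads, and so had Cd2, another receptor gene of T and natural killer cells. Trbc1, a T cell receptor constant gene, held 223 of the 287 reads of the list there, in 4 cells. The genes of the CD3 complex had 33 reads in 3 CD34-negative cells, 31 of them in cell 42, which had Cd7 at 1218 CPM. Reads of T cell markers were found in 12 of the 46 CD34-negative cells, 7 of them among the 27 with high Cd7. Of these 27 cells, 4 had at least 10 CPM of T cell markers.

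Of the 9 natural killer cell markers, 7 had 0 reads in the CD34-negative gate, Ncr1, Klrd1 and Eomes among them. Nkg7, a cytotoxic granule gene, made up nearly all of the sum, at 78.6 CPM without CD34 and 696 CPM with it, and had a rho of -0.267 with Cd7 (-0.303 without cell 10). Reads of natural killer cell markers were found in 25 CD34-negative cells, 11 of them among the 27 with high Cd7. Of these 27 cells, 7 had at least 10 CPM of the markers. The 7 markers of group 2 innate lymphoid cells summed to 384 CPM in the CD34-negative gate, with a median over cells of 259 CPM, and to 246 CPM in the CD34-positive gate. Of this list Il7r (166 CPM, 33 cells), Il1rl1 (141 CPM, 30 cells) and Rora (76.4 CPM, 21 cells) held nearly all reads in the CD34-negative gate, with a rho with Cd7 of 0.15, -0.08 and 0.03, while Areg and Klrg1 had 0 reads, Icos 1 and Gata3 8. The 7 B cell markers summed to 64.0 CPM in the CD34-negative and 49.0 CPM in the CD34-positive gate. Most of that sum was Cd79b, at 49.0 CPM in 14 CD34-negative cells, and Ms4a1 and Vpreb3 had 0 reads there. What cells of these types contribute to the Cd7 values was not tested.

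Of the 9 basophil markers, Fcer1a, Ms4a2, Gata2, Itga2b and Hdc were at 100 CPM or more in each of the 27 cells with high Cd7. Cd200r3 reached this in 26, Cpa3 in 24, Mcpt8 in 23 and Prss34 in 20 of them. Cell 19, with Cd7 at 897 CPM, had the lowest Cpa3 and Cd200r3 of the 27, at 2.06 and 20.6 CPM.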

How the data were processed

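The authors deposited 1 table of raw read counts per gene, 1 column per cell. GSNAP, HTSeq 0.5.3p3 and mm10 are named in the submitters' processing notes; the annotation and the strand setting are not given in the sources used here. Per the labels' protocols, polyadenylated RNA was amplified in 19 PCR cycles and sequenced from a single end over 50 bp, with no molecular identifiers, so intervals cover counting error only. Of all reads, 32.4% named a gene, 3.97% an ERCC sequence, 7.68% more than 1 gene, 33.0% no gene and 22.9% were not aligned; only gene reads entered library sizes. Of 46078 identifiers, 45143 matched a symbol by ID.

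A cell was kept if it had 50000 or more gene reads, 1000 or more genes, under 20% mitochondrial and under 50% ERCC reads. CPM used gene reads, and folds used sums per gate plus 1 CPM. No test was run, since each gate is 1 sample. Alternatives changed the scaling, the added CPM, the depth drawn, the filters and the cells included. Equal depth was 1 random draw per cell. Members and lists were chosen with earlier results of these data known. Besides Cd7 and its 4 related genes, the text names the 6 highest and 6 lowest genes by rho among those with reads in at least 20 CD34-negative cells, members of the lists, marker genes and neighbours of Cd7. The scans were tested on simulated data. Tables were handled with pandas 2.3.3 and numpy 2.4.6 in Python 3.11.15, intervals and ranks came from scipy 1.17.1, and figures from matplotlib 3.10.9. In R 4.3.3, edgeR 4.0.16 gave TMM factors only and scran 1.30.0 size factors. The values of some members of the lists are not reported here.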

Additional observations from a re-analysis of the deposited data

How the results depend on the processing

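No paired analysis was possible because a cell's number is only its name, and nothing was tested. Of the alternative values, 74 stayed close to the reported value (within the counting interval for folds and shares, the interval of the median over cells for the median level, 0.1 for rho, and 1.5 times for list medians and counts of shared genes), 26 moved further and 3 changed sign; the cause was not tested. Leaving out cell 10, the ranges on either side of 90 CPM, and the lists of like genes per ERCC read and given the genes found were chosen after the values were seen.

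The Cd7 log2 fold was -3.77 with ERCC scaling, -4.89 with TMM factors and -4.04 with 10 CPM added, and ran from -5.99 to -4.60 with each cell left out, the lowest without CD34-positive cell 37. Leaving out each CD34-negative cell gave rho of 0.655 to 0.700 for Ccl6, -0.693 to -0.633 for Ctsg, -0.771 to -0.697 for Prss34 and -0.764 to -0.672 for Mcpt8.

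Over the 35 cells with a Cd7 read, rho was 0.548 for Ccl6, -0.433 for Ctsg and -0.609 for Prss34. Given the genes found it was 0.522, -0.443, -0.511 and, for Mcpt8, -0.519; per ERCC read Mcpt8 was at -0.590. At 90 CPM or more of Cd7 it was 0.140, -0.212, -0.315 and -0.338, and below 90 CPM -0.146 (a change of sign), -0.398, -0.324 and -0.350. The genes most like Cd7 shared 7 of 12 names per ERCC read and 6 given the genes found.

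ERCC scaling moved the median of all genes to 1.06. The fold of Lgals1, the one CD7 binding partner with reads, moved to 2.13, and list medians to 4.95 for granule and progenitor genes, 1.40 for proteases and receptor, -1.53 for chemokines and 3.04 for cell cycle genes. Those of the phosphoinositide 3-kinase list (0.57) and immune receptors (0.0079) changed sign. Depth limits the low cells, whose Cd7 rests on 0 to 13 reads.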

Other observations

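Both cells left out for few gene reads were examined for Cd7. Cell 20 of the CD34-negative gate had 1 Cd7 read among 24565 gene reads, and cell 3 of the CD34-positive gate had 0 among 31504, which allows up to 95.2 CPM (3 reads).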
